A study of Homo sapiens with 12 samples.

Results

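Cytosolic ribosomal protein genes encode the proteins of the ribosome that works in the cytoplasm. They were taken here as all protein-coding rows named RPLP0, RPLP1, RPLP2, RPSA, or RPL or RPS followed by a number, leaving out the RPS6K kinases and paralogs with a second L after the number. This rule uses names only and gave 79 of the 23195 genes listed, 46 of the large subunit, 32 of the small subunit, and RPS19BP1. RPS19BP1 is named for binding a ribosomal protein and is not one itself; without it, the number of members called was the same in each comparison.

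The study sequenced polyA RNA of HCT116, a human colorectal carcinoma line with functional p53, in 12 libraries. They form 4 groups of 3, all in 1 cell line: siControl with DMSO, siControl with Nutlin-3a, siRFX7 with DMSO and siRFX7 with Nutlin-3a, where siRFX7 is an siRNA against the transcription factor RFX7 and siControl a control siRNA. Nutlin-3a, which frees p53 by keeping MDM2 from binding it, was given at 10 µM for 24 h, and DMSO is its solvent. The labels name no separate cultures, so the p-values measure the spread between these libraries, which may be technical. The values used here are the authors' DESeq2 tables, which hold a mean and fold changes with errors but no value per library, so group means stand in place of single libraries and whether libraries of 2 groups overlap is not known.

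Ribosomal proteins are made in matched amounts from short, very abundant messages. In mammals most of these messages begin with a C followed by a run of pyrimidines, the terminal oligopyrimidine (TOP) motif, through which mTOR and LARP1 set their translation and stability. Ribosomal proteins also reach p53: RPL5 and RPL11, bound to 5S rRNA, can inhibit MDM2 when ribosome assembly is disturbed, and several others are known to bind MDM2.

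The start-site sequences are shown for the 5 genes whose Nutlin-3a response differed between the siRNAs and for the 3 genes of the ribosomal stalk. With a C and at least 4 pyrimidines required at an annotated start, RPL13A, RPS12, RPL11 and the 3 stalk genes had the motif. RPL3 and RPS4X did not have it at the annotated start. The starts used in these cells were not measured, so this does not show that their messages lack it. Sequences are from RefSeq (GRCh38.p14), 20 bases before to 20 bases from the annotated start, 5′ to 3′ on the gene's strand, with capitals for the run of pyrimidines that begins with a C at the start (RPL11 has 2 annotated starts, of which 1 with such a run is shown).
RPL13A, chr19:49487588-49487627, plus strand: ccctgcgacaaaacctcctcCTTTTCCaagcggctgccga
RPL3, chr22:39319604-39319643, minus strand: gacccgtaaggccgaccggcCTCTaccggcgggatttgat
RPS12, chr6:132814549-132814588, plus strand: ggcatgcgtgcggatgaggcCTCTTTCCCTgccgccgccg
RPL11, chr1:23691786-23691825, plus strand: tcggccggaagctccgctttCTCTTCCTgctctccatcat
RPS4X, chrX:72277229-72277268, minus strand: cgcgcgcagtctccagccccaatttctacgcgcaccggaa
RPLP0, chr12:120201092-120201131, minus strand: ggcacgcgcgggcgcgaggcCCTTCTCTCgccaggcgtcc
RPLP1, chr15:69452798-69452837, plus strand: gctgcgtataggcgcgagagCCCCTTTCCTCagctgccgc
RPLP2, chr11:809947-809986, plus strand: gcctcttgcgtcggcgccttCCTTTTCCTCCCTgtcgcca
The annotated RPS4X start has no such run, and the run of RPL3, 4 bases long, is too short to be counted here. Of the 63 members matched in the RefSeq table, 47 (74.6%) had a start with a C followed by at least 4 pyrimidines, against 5.14% of all 27305 genes in that table. Counted over starts, the shares were 60.3% of 78 and 4.07% of 35116.

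The summed level of the group was highest in siControl cells with Nutlin-3a. The 79 genes together held 3.87% of all normalized counts with siControl and DMSO and 4.55% with siControl and Nutlin-3a. With siRFX7 they held 3.83% for DMSO and 3.68% for Nutlin-3a. The group mean was highest in siControl Nutlin-3a for 60 of the 79 members and lowest in siRFX7 Nutlin-3a for 34. Without RPL13A and RPL3, which changed most, the shares were 3.68%, 4.24%, 3.68% and 3.51%. Group totals ran from 25915992 to 27407526 normalized counts. These totals and the shares cover the 20026 genes listed for siRFX7 in DMSO, the only ones with group means. RFX7, the target, had group means of 944, 1332, 185 and 302 normalized counts in the same order of groups. The siRFX7 log2 fold change of RFX7 in the authors' deposited tables was -2.35 without and -2.14 with Nutlin-3a. Of the epithelial markers, 6 of 7 were listed, and of markers of blood, vessel, stromal and liver cells 2 of 6 were listed (COL1A2 and DCN, in the Nutlin-3a tables only).

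In siControl cells Nutlin-3a raised many ribosomal protein genes by a small amount. A gene is called here where the authors' DESeq2 adjusted p is below 0.05. Of the 79 members, 47 rose and 1 fell, while of all genes 22.0% were called higher and 21.2% lower. The median log2 fold change was 0.21 for the members and 0.02 for all genes, and 68 members lay above 0. With the groups set to equal totals 37 rose and 1 fell, and with an adjusted p below 0.01 these counts were 29 and 1. At that stricter limit 36.3% of all genes were called in either direction, against 43.2% at the main limit. Abundant genes are called more often: of the 5817 protein-coding genes with a mean of at least 1000 normalized counts, 36.8% were called higher and 32.9% lower. Among abundant genes outside the group with a coding length under 900 bases, 32.1% were called higher, with a median log2 fold change of -0.02.

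RPL13A, a large subunit protein that also takes part in the GAIT translation-silencing complex, rose most. With siControl its group means were 14119.5 normalized counts for DMSO and 25687 for Nutlin-3a, and with siRFX7 they were 11078 for DMSO and 13851 for Nutlin-3a. One group thus stands above the other 3. Its log2 fold change with Nutlin-3a in siControl cells was 0.86 with a standard error of 0.10 (DESeq2 adjusted p = 1.71e-18) in the authors' deposited table. RPL3, which reaches towards the peptidyl transferase centre, had means of 37393, 57708, 27674 and 31986, in the same order of groups. Its log2 fold change with Nutlin-3a in siControl cells was 0.63 with a standard error of 0.07 (DESeq2 adjusted p = 3.14e-18) in the authors' deposited table. The next in size were RPL34, RPS19 and RPS4X, at 0.48, 0.46 and 0.46 in the authors' deposited table. RPS19 is the gene most often mutated in Diamond-Blackfan anaemia, and RPS4X is the X-linked copy of the small subunit protein S4. The 1 member that fell was RPL41, a very short large subunit protein, with a log2 fold change of -0.42 and a standard error of 0.14 (DESeq2 adjusted p = 0.00781) in the authors' deposited table.

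**Figure D1:**
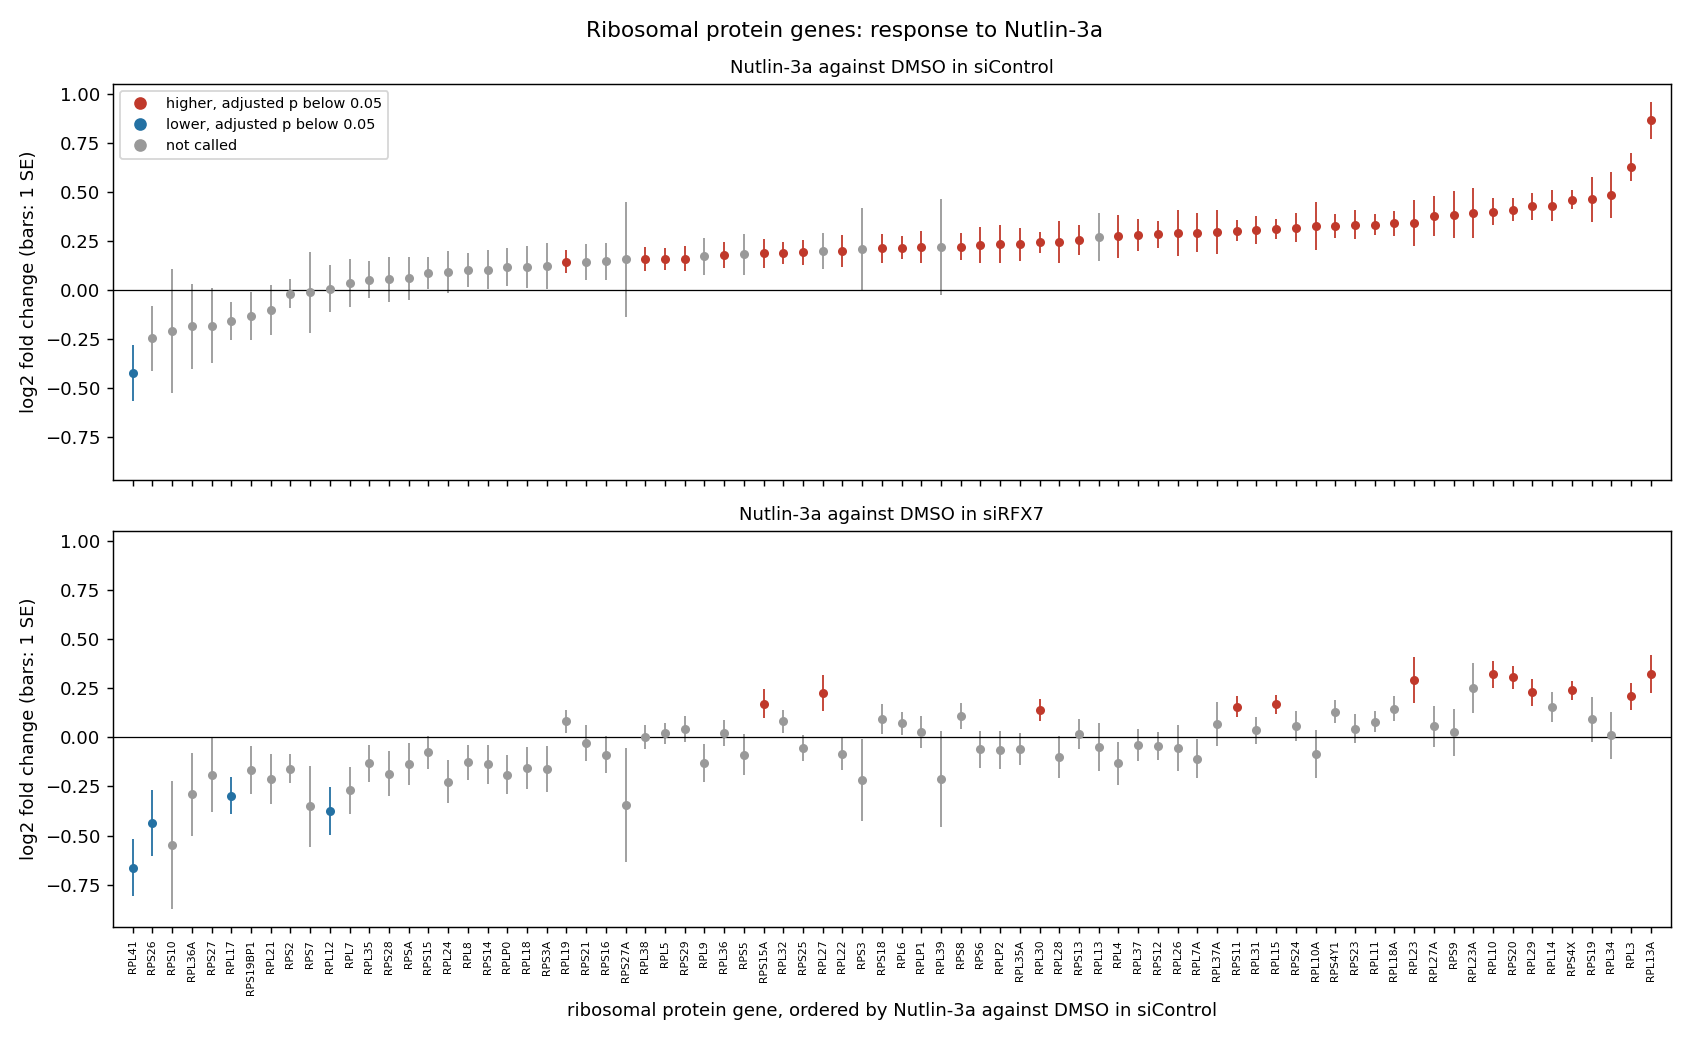
Log2 fold change of 78 of the 79 ribosomal protein genes with Nutlin-3a in siControl cells (top) and siRFX7 cells (bottom), from the authors' deposited tables, with bars of 1 standard error and genes in the order of the top panel. In the top panel 47 members are called higher and RPL41 lower; in the bottom panel 12 are called higher and 4 lower.

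Under siRFX7 the response to Nutlin-3a was smaller and mixed. There, 12 members rose and 4 fell, beside 21.7% of all genes called higher and 19.7% lower, and the members' median log2 fold change was -0.05. The members called higher included RPL13A at 0.32, RPL10 at 0.32, RPS20 at 0.31, RPL23 at 0.29 and RPS4X at 0.24 in the authors' deposited table. Those that fell were RPL41 at -0.66, RPS26 at -0.44, RPL12 at -0.37 and RPL17 at -0.30 in the authors' deposited table. Of the members, 11 were called higher under both siRNAs, 23.4% of the 47 and 91.7% of the 12, an overlap not counted over all genes. The Nutlin-3a comparisons of the 2 siRNAs share no library. The order of members was alike in them: Spearman's rho across the 79 members was 0.79, a description over genes that share libraries within each table, and it was 0.81 across all protein-coding genes. The split of calls depends on scaling: with the 4 groups set to equal totals 6 members rose and 8 fell, and with fold changes centred on the median of protein-coding genes 8 rose and 7 fell.

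Without Nutlin-3a, the share of the group called lower under siRFX7 was near that of other genes. In DMSO 2 members were higher and 16 (20.3%) lower, beside 13.5% of all genes called higher and 15.5% lower. Of the members with at least 1000 normalized counts 23.5% were lower, and of all protein-coding genes at that level 27.7%. The members' median log2 fold change was -0.05, and it was 0.00 with the groups set to equal totals, where 6 members were higher and 9 lower. RPL32, a large subunit protein, fell most, with group means of 10609 and 7011 in siControl and siRFX7. Its log2 fold change was -0.60 with a standard error of 0.06 (DESeq2 adjusted p = 6.1e-23) in the authors' deposited table. RPL10, which is needed for the joining of the subunits, followed at -0.55 with a standard error of 0.07 in the authors' deposited table. RPL3 stood at -0.43, RPL23 at -0.35 and RPL13A at -0.35 in the authors' deposited table. The 2 higher genes were RPS4Y1, the Y-linked copy of S4, at 0.34, and RPSA, also known as the laminin receptor, at 0.31 in the authors' deposited table.

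With Nutlin-3a present, the difference between the siRNAs took in most of the group. There, 51 members were lower under siRFX7 and 0 higher, beside 13.6% of all genes called lower and 15.0% higher. At an unadjusted p below 0.05, 55 members were called in this comparison. The median log2 fold change was -0.29, and 72 of the 79 lay below 0. Of abundant protein-coding genes 21.0% were called lower. This comparison shares the siControl Nutlin-3a libraries with the Nutlin-3a response in siControl cells, so these counts are not independent of the 47 above. All 16 members lower in DMSO were also called lower here, which is 31.4% of the 51. This overlap was not counted over all genes. Spearman's rho between the 2 siRFX7 comparisons, which share no library, was 0.81 across the members and 0.64 across all protein-coding genes. Fold changes of the deposited tables add up around the groups, so their errors may come from a joint fit. The calls in the 2 siRFX7 tables may therefore not be independent. RPL13A led at -0.89 with a standard error of 0.10 (DESeq2 adjusted p = 8.16e-19), in the authors' deposited table. RPL3 came next at -0.85, then RPL32 at -0.71, RPL10 at -0.63 and RPL10A at -0.57, in the authors' deposited table. RPL10A, a large subunit protein, was at -0.16 in DMSO, where it was not called in the authors' deposited table.

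**Figure D2:**
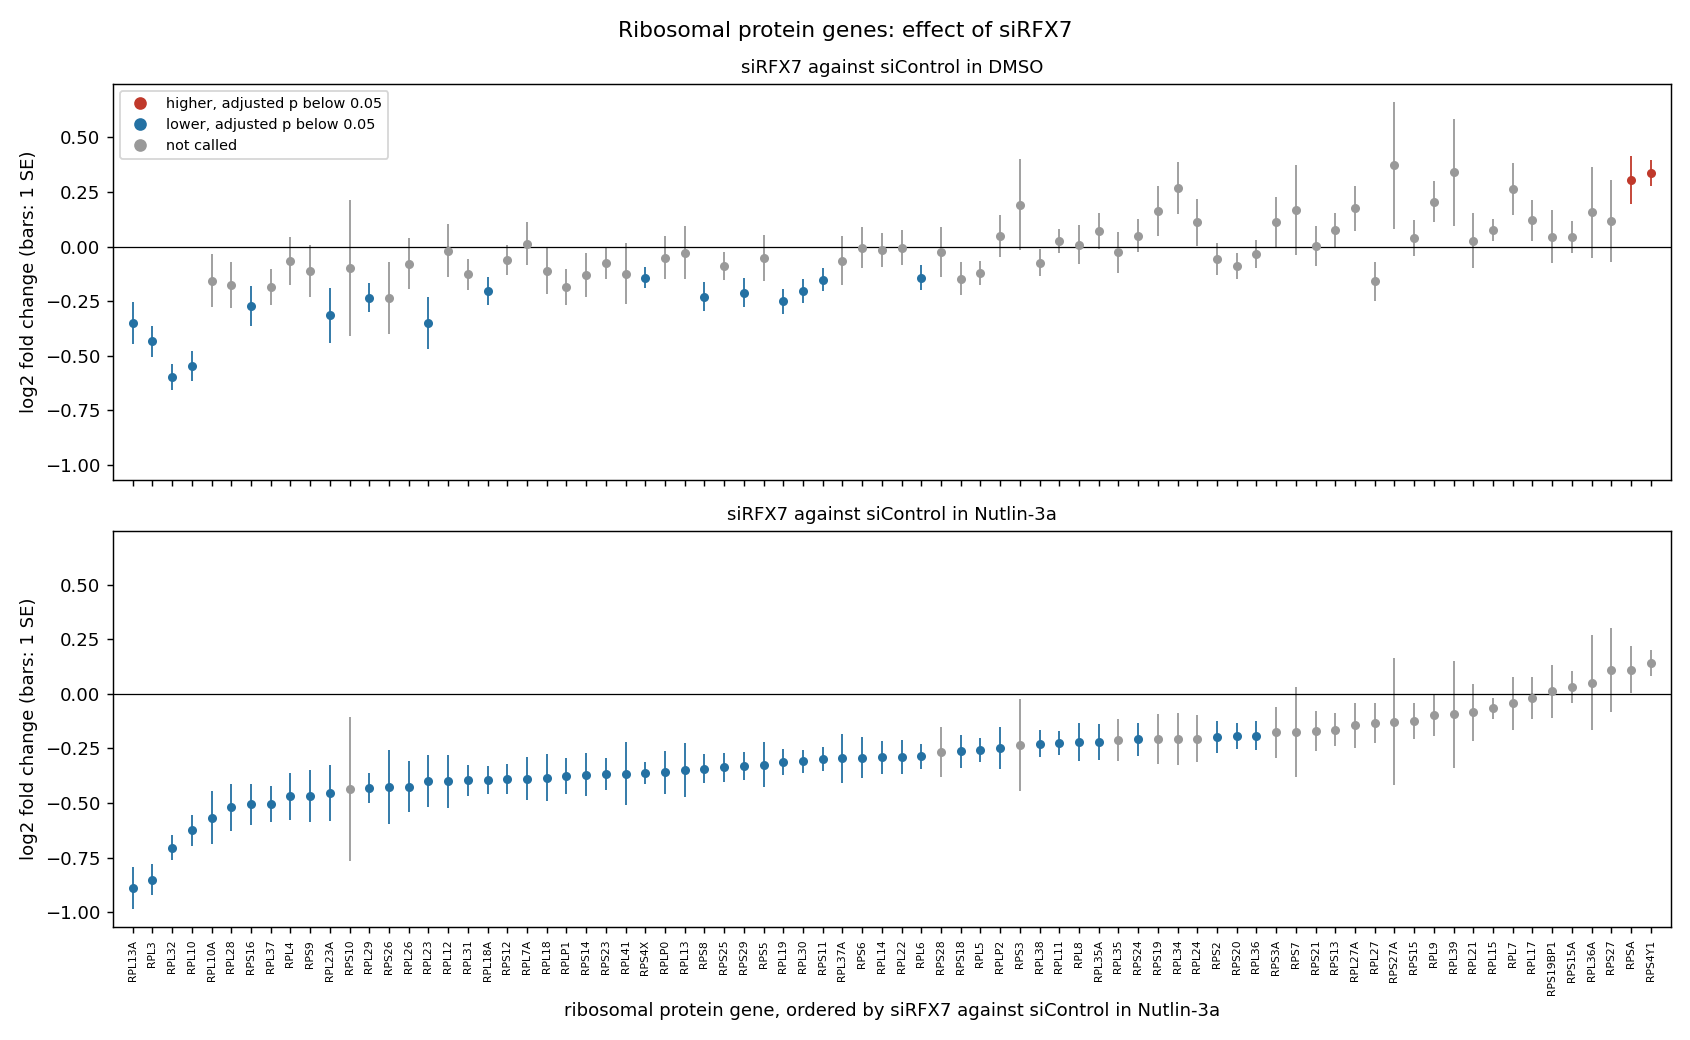
Log2 fold change of 78 of the 79 ribosomal protein genes with siRFX7 against siControl in DMSO (top) and in Nutlin-3a (bottom), from the authors' deposited tables, with bars of 1 standard error and genes in the order of the bottom panel. In the top panel 16 members are called lower and 2 higher; in the bottom panel 51 are called lower and 0 higher.

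The difference between the Nutlin-3a responses was then tested itself. The interaction is the log2 fold change with Nutlin-3a under siRFX7 minus that in siControl cells. Since the 4 tables close, it equals the siRFX7 effect in Nutlin-3a minus that in DMSO. A z test with Benjamini-Hochberg adjustment over all 23195 genes called 5 members below 0 and 0 above, beside 2.92% and 3.28% of all genes. Of the 68 members with at least 1000 normalized counts 7.35% were called below 0. Of the 5817 protein-coding genes at that level 5.02% were called below 0 and 8.13% above. At an unadjusted p below 0.05, 33 members passed, and so did 1667 of those 5817 genes. The median interaction was -0.24 for the members and 0.00 for all genes. It lay below 0 for 78 of the 79 members, the exception being RPL27 at 0.03. All members share the same 12 libraries, so these 78 directions are not 78 independent observations. The median standard error of a member's interaction was 0.13.

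The 5 called genes were RPL13A, RPL3, RPS12, RPL11 and RPS4X. RPL13A had an interaction of -0.54 with a standard error of 0.14 (z test, Benjamini-Hochberg adjusted p = 0.00232). RPL3 had -0.42 with a standard error of 0.10 (z test, adjusted p = 0.00104). Both rose with Nutlin-3a under each siRNA, and rose less under siRFX7. RPS12, a small subunit protein, had means of 12517, 15242, 11989 and 11630 in the order of groups above and an interaction of -0.33 with a standard error of 0.10 (z test, adjusted p = 0.0187). RPL11 had means of 17954, 22621, 18286 and 19324 and an interaction of -0.25 with a standard error of 0.08 (z test, adjusted p = 0.0219). For RPS12 and RPL11 the Nutlin-3a response was called in siControl cells and not under siRFX7 in the authors' deposited tables. RPS4X had means of 23271, 32008, 21093 and 24894 and an interaction of -0.22 with a standard error of 0.07 (z test, adjusted p = 0.0322).

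**Figure D3:**
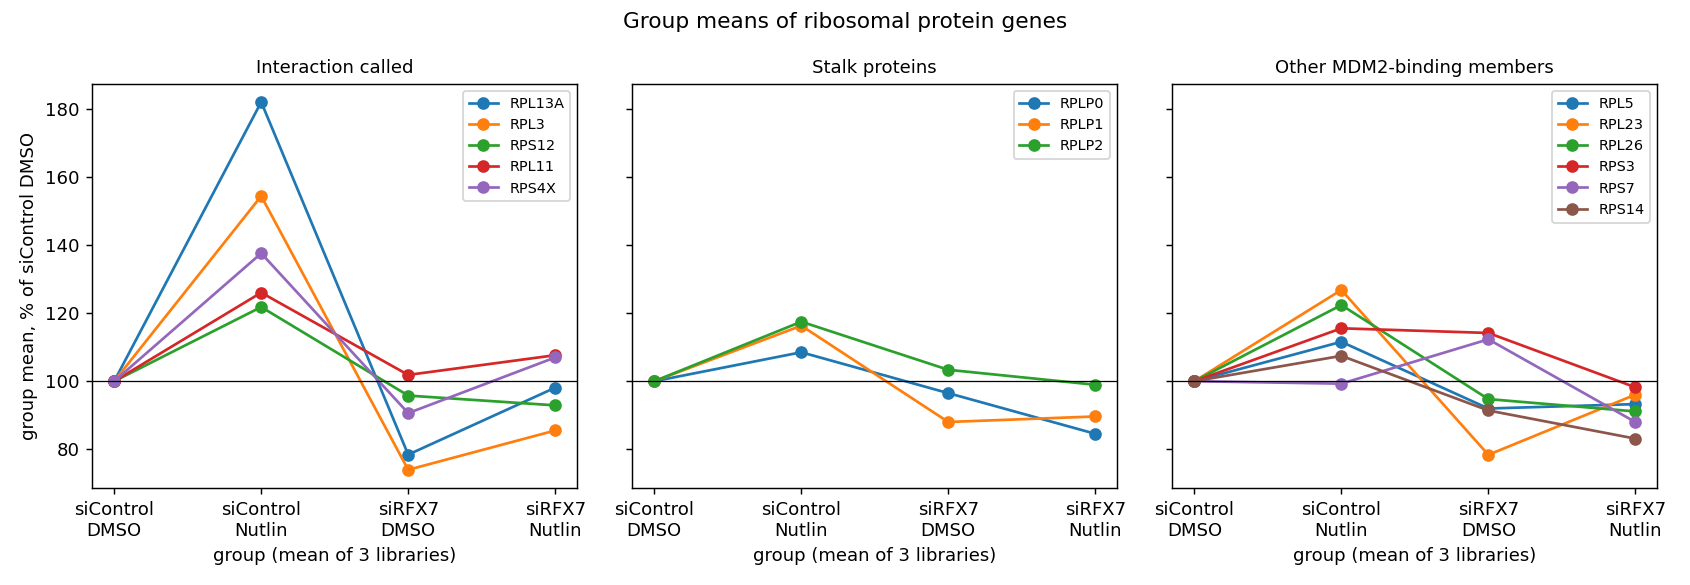
Group means (3 libraries each) as a percentage of the siControl DMSO mean for the 5 genes whose interaction was called, the stalk proteins and 6 further members known to bind MDM2, with lines that join the points of a gene. RPL13A and RPL3 reach their highest point in siControl Nutlin-3a and their lowest in siRFX7 DMSO; RPS7 has its highest mean in siRFX7 DMSO.

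By subunit the counts were as follows. In siControl cells Nutlin-3a raised 31 of 46 large subunit genes and 16 of 32 small subunit genes, with median log2 fold changes of 0.23 and 0.18. Under siRFX7 in Nutlin-3a 34 of 46 and 17 of 32 were lower, with medians of -0.30 and -0.25. The median interactions were -0.26 and -0.24. The difference between the subunits was not tested.

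The stalk proteins RPLP0, RPLP1 and RPLP2 bind the translation factors. Their group means with siControl were 29879 and 32418 for RPLP0, 18127 and 21081 for RPLP1, and 19959 and 23445 for RPLP2, in DMSO and Nutlin-3a. Nutlin-3a raised RPLP1 and RPLP2 in siControl cells, by log2 fold changes of 0.22 and 0.23, and RPLP0 was at 0.12 without a call in the authors' deposited table. All 3 were lower under siRFX7 in Nutlin-3a, RPLP0 at -0.36, RPLP1 at -0.38 and RPLP2 at -0.25 in the authors' deposited table. None of the 3 interactions was called by the z test, with values of -0.31, -0.19 and -0.29. At an unadjusted p below 0.05, 2 of the 3 passed.

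Of the 8 members known to bind MDM2 (RPL5, RPL11, RPL23, RPL26, RPS3, RPS7, RPS14 and RPS27), 4 (50%) rose with Nutlin-3a in siControl cells and 5 (62.5%) were lower under siRFX7 in Nutlin-3a. These shares are near those of all 79 members, 59.5% and 64.6%. RPL11 and RPL5, the partners in the 5S particle, rose by log2 fold changes of 0.33 and 0.16 in the authors' deposited table. RPL23 rose by 0.34 and RPL26 by 0.29 in the authors' deposited table. RPS14, lost in the 5q- syndrome, was at 0.10 with Nutlin-3a without a call and was lower under siRFX7 in Nutlin-3a, at -0.37, in the authors' deposited tables. RPS3, RPS7 and RPS27 were called in none of the 4 tables. RPS3 and RPS7 had standard errors of 0.21 with Nutlin-3a in siControl cells in the authors' deposited table, although their means were 33950 and 4557 normalized counts.

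The median standard error of the log2 fold change with Nutlin-3a in siControl cells was 0.086 for the 68 members with at least 1000 normalized counts, against 0.067 for all protein-coding genes at that level. Over all 79 members it was 0.094, and over protein-coding genes of any level 0.099. In all, 18 members were called in none of the 4 comparisons, a count not made over all genes.

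Some members counted far below their partners. Levels per coding length ran from 101962 normalized counts per kb for RPL8 down to 77.9 for RPS10. RPS10, RPL36A and RPL17 are overlapped on the same strand by other annotated genes over more than 70% of their exons. RPL7 had 283 normalized counts while its 13 listed pseudogenes had 24048 in sum. Across the group, 323 processed or other pseudogenes of 71 members were listed, with a summed mean of 46.8% of the members' own sum. RPL13A itself had 16184 normalized counts, and its 6 listed pseudogenes 37257 in sum. How the counting treated reads that match several places is not given in the sources used here, so the level of such a member is uncertain; the part of this in the results was not tested.

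The pseudogene rows had medians of the same sign as the members in these comparisons, at 0.23 with Nutlin-3a in siControl cells, -0.31 with siRFX7 in Nutlin-3a and -0.28 for the interaction, on the log2 scale. Most were not called: 66 of 323 (20.4%) were higher and 0 lower with Nutlin-3a in siControl cells, where 77 had an unadjusted p below 0.05. Of all genes 22.0% were higher and 21.2% lower there, so the share called higher was near that of all genes. Under siRFX7 in Nutlin-3a 73 of the 242 listed (30.2%) were lower and 1 higher, beside 13.6% and 15.0% of all genes. For the interaction 9 of 323 (2.79%) were below 0 and 0 above, with 54 at an unadjusted p below 0.05. Of all genes 2.92% were called below 0 and 3.28% above. No pseudogene was compared with its own parent. Adding each parent to its pseudogenes, of which 256 had group means, left the members' medians at 0.22, -0.29 and -0.24. The 11 members with fewer than 1000 normalized counts had a median of -0.16 with Nutlin-3a in siControl cells and none of them rose, while the other 68 had a median of 0.23 with 47 risen. RPL41, RPS26 and RPL17, 3 of the 4 genes that fell with Nutlin-3a under siRFX7, are among those 11.

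Paralogs outside the rule did not follow one course. RPS27L, a known p53 target and paralog of RPS27, had group means of 1684, 6033, 3232 and 6931. Its log2 fold change with Nutlin-3a was 1.84 in siControl cells and 1.10 under siRFX7 in the authors' deposited tables. Its interaction was -0.74 with a standard error of 0.09 (z test, adjusted p = 2.55e-13), and it was higher under siRFX7 in DMSO, at 0.94, in the authors' deposited table. RPL22L1, the paralog of RPL22, was lower under siRFX7 in both conditions, at -0.27 without and -0.51 with the drug in the authors' deposited tables. RPL22 itself was at -0.01 and -0.29, the second of which was called, in the authors' deposited tables. RPL36AL and RPL7L1 were called in none of the 4 tables. FAU and RACK1 are ribosomal proteins with other names; RACK1 rose with Nutlin-3a in siControl cells, at 0.24, and was lower under siRFX7 in Nutlin-3a, at -0.28, in the authors' deposited tables.

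Other genes with TOP messages, translation factors for the most part, moved for the most part in the same directions. Of the 14 listed, 9 (64.3%) rose and 2 (14.3%) fell with Nutlin-3a in siControl cells, beside 36.8% and 32.9% of abundant protein-coding genes. Under siRFX7 in DMSO 7 (50%) of the 14 were lower and 0 higher, beside 27.7% and 17.2% of abundant protein-coding genes. Their median log2 fold change there was -0.13, against -0.05 for the members, of which 20.3% were lower. Under siRFX7 in Nutlin-3a 11 (78.6%) of the 14 were lower and 0 higher, beside 21.0% and 21.7% of abundant protein-coding genes. The median interaction was -0.29, and the z test called 7 (50%) of the 14 below 0, beside 5.02% of abundant protein-coding genes. EEF2, the elongation factor that moves the ribosome along the message, rose by 0.71 in siControl cells and by 0.38 under siRFX7 in the authors' deposited tables. Its interaction was -0.32 with a standard error of 0.07 (z test, adjusted p = 0.000279). EIF4B, an initiation factor, was the lowest of the list under siRFX7 in Nutlin-3a at -0.74, and the poly(A)-binding protein PABPC1 was at -0.58, in the authors' deposited table. NAP1L1 and HNRNPA1 fell with Nutlin-3a in siControl cells, at -0.25 and -0.29 in the authors' deposited table. Of 7 regulators of TOP messages, 0 were higher and 3 (42.9%) lower under siRFX7 in DMSO. Of all genes 13.5% were higher and 15.5% lower there, and of abundant protein-coding genes 17.2% and 27.7%. In Nutlin-3a 1 (14.3%) of the 7 was higher and 2 (28.6%) lower under siRFX7. Of all genes 15.0% were higher and 13.6% lower there, and of abundant protein-coding genes 21.7% and 21.0%. LARP1, which binds these messages, was lower under siRFX7 at -0.34 without and -0.25 with the drug in the authors' deposited tables. EIF4EBP1 was the lowest of the 7, at -0.82 without and -0.27 with the drug. The interactions of the regulators lay above 0 for 6 and below 0 for 1, with a median of 0.11. That of EIF4EBP1 was called, at 0.55 with a standard error of 0.12 (z test, adjusted p = 0.000445).

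Genes that build ribosomes were called in both directions. Of 40 biogenesis and RNA polymerase I genes, 10 (25%) rose and 13 (32.5%) fell with Nutlin-3a in siControl cells, beside 36.8% and 32.9% of abundant protein-coding genes. Under siRFX7 in Nutlin-3a 2 (5%) were higher and 7 (17.5%) lower, beside 21.7% and 21.0% of abundant protein-coding genes. Of all genes 15.0% were higher and 13.6% lower there. With Nutlin-3a in siControl cells the RNA polymerase I factor UBTF was lower at -0.68 and the snoRNP protein NOP56 at -0.46. RRP12 was higher there at 0.74, in the authors' deposited table. The median interaction was -0.05, with 1 call in each direction: SBDS, which helps release a factor from the new large subunit, at 0.44 and NOB1, a nuclease of the small subunit RNA, at -0.27. Of 78 mitochondrial ribosomal protein genes, 14 (17.9%) rose and 23 (29.5%) fell with Nutlin-3a in siControl cells, beside 22.0% and 21.2% of all genes. Of abundant protein-coding genes 36.8% rose and 32.9% fell there. Under siRFX7 in Nutlin-3a 13 (16.7%) of the 78 were higher and 6 (7.69%) lower, beside 15.0% and 13.6% of all genes. Of abundant protein-coding genes 21.7% were higher and 21.0% lower. The mitochondrial list had a median interaction of -0.02.

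**Figure D4:**
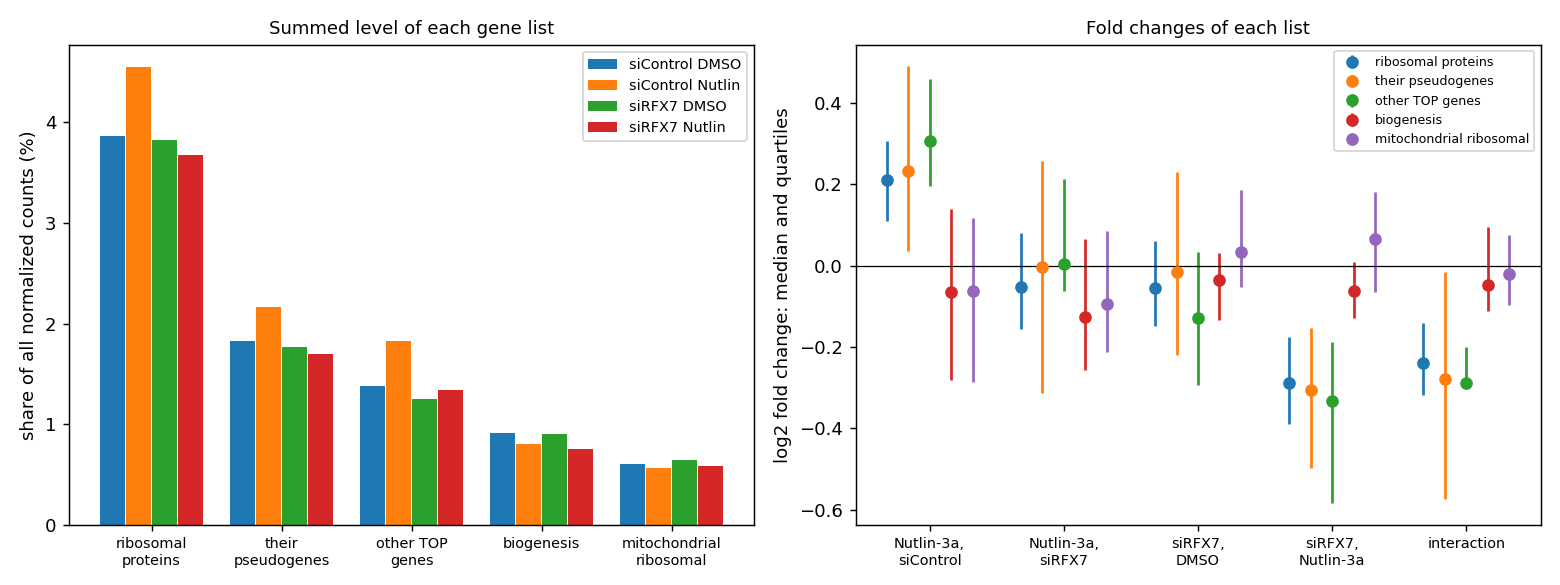
Left, the summed group means of 5 gene lists as a percentage of all normalized counts in each group (bars from 0). The counts cover the 20026 genes with group means, among them 256 of the pseudogenes. Right, the median log2 fold change of each list with its quartiles as bars, in the 4 comparisons and for the interaction. Ribosomal proteins, their pseudogenes and other TOP genes lie above 0 with Nutlin-3a in siControl cells and below 0 with siRFX7 in Nutlin-3a; the biogenesis and mitochondrial lists have interaction medians of -0.05 and -0.02.

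Sequence around the starts was compared next, for motifs on both strands from 250 bases before to 50 after each start. CCGGAAG, the core bound by ETS factors, was in 22 of the 63 matched members (34.9%) and in 12.2% of all genes. GTTGCC, one arm of the RFX motif, was in 8 (12.7%), against 14.6% of all genes. CACGTG, the E-box core, was in 4 (6.35%), against 8.77%, and TATAAA in 5 (7.94%), against 14.0%. A match describes letters in this window and is no evidence of binding. The promoter of RPL13A, which changed most, is shown for the 250 bases before its start, chr19:49487358-49487607 on the plus strand (GRCh38.p14), with capitals for CACGTG, which begins 221 bases before the start, and CCGGAAG, which begins 177 bases before it.
RPL13A promoter: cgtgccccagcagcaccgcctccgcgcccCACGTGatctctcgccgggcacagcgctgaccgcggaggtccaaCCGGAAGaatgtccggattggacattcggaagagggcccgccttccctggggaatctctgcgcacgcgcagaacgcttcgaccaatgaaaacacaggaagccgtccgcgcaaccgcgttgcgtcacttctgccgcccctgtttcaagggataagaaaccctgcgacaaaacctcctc
Members with a C and at least 4 pyrimidines at a start had a median interaction of -0.28 (47 genes) and the 16 matched members without one -0.18, and their medians with Nutlin-3a in siControl cells were 0.22 and 0.18. Under siRFX7 in DMSO the medians were -0.02 and -0.14, and 4 (8.51%) and 6 (37.5%) members were lower. Of all genes 15.5% were lower there, and of abundant protein-coding genes 27.7%. Under siRFX7 in Nutlin-3a the medians were -0.29 and -0.30. The differences between members with and without such a start were not tested. Of the genes with a called interaction, RPL13A, RPS12 and RPL11 are in the first group and RPL3 and RPS4X in the second.

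Many ribosomal protein genes carry snoRNAs in their introns. The 28 members with an annotated snoRNA inside the gene had a median log2 fold change of 0.26 with Nutlin-3a in siControl cells and the other 51 had 0.18; under siRFX7 in Nutlin-3a the medians were -0.33 and -0.27. Under siRFX7 in DMSO 10 (35.7%) of the 28 and 6 (11.8%) of the 51 were lower, beside 15.5% of all genes. The medians there were -0.06 and -0.03. The interaction medians were -0.22 and -0.24. The differences between members with and without a snoRNA were not tested.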

How the data were processed

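Tables of DESeq2 results, deposited by the authors, were used, 4 in all, each comparing 2 of the groups. Per the submitters' processing notes, the tools were bcl2fastq 2.20.0.422, Trimmomatic 0.39, FastQC 0.11.9, cutadapt 2.10, SAMtools 1.10, Picard, featureCounts 1.6.5 and DESeq2 1.20.0, with build hg38; the aligner, the annotation release, the strand setting and the handling of multiple matches are not given in the sources used here. Per the labels, 500 ng of total RNA went into each polyA library. Mean normalized counts in the deposited tables are a signal, counts divided by size factors. Effects and errors are log2 values, per the file headers. The deposited test statistic is a score, equal to the log2 fold change over its error. The authors' p-values and adjusted p-values are from DESeq2, the latter adjusted by Benjamini-Hochberg over the genes listed (23195, 23195, 20026 and 19393). No value per library was used here, so the depth of single libraries is unknown.

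Read as siRFX7 over siControl, the tables' fold changes added up around the 4 groups to within 1.27e-14. Group means were then solved from the mean and the fold changes, for the 20026 genes listed for siRFX7 in DMSO. The interaction z test used the root of the summed squared errors, taken as known. A simulation drew fold changes with those same errors, so it could not check whether the errors themselves hold. Counts were planned with edgeR, which was not run because the tables hold statistics. Positions and overlaps came from GENCODE 29, which held 23164 of the gene IDs and all 79 members. Levels per length used coding length. Work was done in Python 3.11.15 with pandas 2.3.3 and scipy 1.17.1. Members, lists and motifs were chosen with earlier results of these data known. Genes named are, in each comparison and direction, the 5 called members with the largest change, plus MDM2 binders, stalk proteins, paralogs, the highest and lowest levels and examples of each list. Alternatives were adjusted p below 0.01, a minimum absolute log2 fold change of 0.58, protein-coding genes with a mean of at least 10 only, equal group totals and centring on the protein-coding median; leaving out RPS19BP1, and leaving out members under 1000 for the counts of calls, were chosen after seeing the data. Values of some genes are not reported here.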

Additional observations from a re-analysis of the deposited data

Results flagged for a closer look

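The response to Nutlin-3a differed between siControl and siRFX7 cells for 5 ribosomal protein genes, by the z test of the difference with Benjamini-Hochberg adjustment over all genes. The differences were -0.54 for RPL13A, -0.42 for RPL3, -0.33 for RPS12, -0.25 for RPL11 and -0.22 for RPS4X, on the log2 scale. With groups of 3 libraries and no values per library, no check for a single library far from the others was made.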

How the results depend on the processing

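No paired analysis was possible because the tables hold no values per library; for the same reason leaving out each replicate was not run. With an adjusted p below 0.01 the members called were 30 for Nutlin-3a in siControl cells (main 48), 10 for Nutlin-3a under siRFX7 (main 16), 11 for siRFX7 in DMSO (main 18) and 2 for the interaction (main 5). At that limit 36.3% of all genes were called for Nutlin-3a in siControl cells (main 43.2%) and 34.5% under siRFX7 (main 41.4%). With a minimum absolute log2 fold change of 0.58 the counts of members were 2, 1, 1 and 0, in the same order. The siRFX7 comparison in Nutlin-3a had 4 (main 51). Of all genes 22.4% passed this minimum for Nutlin-3a in siControl cells and 20.8% under siRFX7. The 1 member under siRFX7 with Nutlin-3a was lower, against 12 higher and 4 lower in the main result. With equal group totals that same comparison had 14 calls, 6 higher and 8 lower, and the interaction had 11. The interaction had 9 calls over protein-coding genes with a mean of at least 10, and 8 with centring; all of these were below 0. The median of siRFX7 in DMSO turned from -0.05 to 0.00 with equal totals, and that of Nutlin-3a under siRFX7 from -0.05 to 0.01 among members with at least 1000 normalized counts. The other medians kept their sign under each alternative run, at 0.19 to 0.23 for Nutlin-3a in siControl cells, -0.31 to -0.26 for siRFX7 in Nutlin-3a and -0.27 to -0.24 for the interaction. Of 74 called values of named genes none changed sign; 20 were no longer called with an adjusted p below 0.01, 10 with equal totals, 3 with centring and 62 with the minimum fold change. The scalings moved the median of all genes by under 0.1.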
